A study of Mus musculus with 21 samples.

Results

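The genes described here are 9 factors of the core pluripotency network of the mouse: Pou5f1 (which encodes OCT4), Sox2, Nanog, Sall4, Zfp281, Lin28a, Utf1, Dppa2 and Dppa4. They were taken by gene symbol from the deposited table of raw counts, which held all 9 of them among 33861 genes. RNA was sequenced from 21 samples, of which 12 were cultured cells (1000 cells each) and 9 were single mouse epiblasts. The series is titled for the capture of stem cells with features of formative pluripotency, the state between naive embryonic stem cells and the primed cells of the later epiblast.

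The cultured cells fell into 4 groups of 3 samples. FS cells, labelled as formative stem cells and kept in the medium A3XR, came from 2 lines, line 1 (FS1) at passages 10, 11 and 18 and line 2 (FS2) at passages 12, 13 and 16. AF and AFX cells were labelled EpiSCs, that is epiblast stem cells, the standard primed cell type. They were kept in media named AF and AFX, have E14, an embryonic stem cell line of the mouse, in their descriptions, and were collected at passages 14, 15 and 16. The labels give neither the contents of the media, the strain and genotype of the FS lines, nor any genetic change. The epiblasts came from embryonic days 5.0 (embryos 1, 2 and 4), 5.5 and 6.0 (embryos 1, 2 and 3 each). For the last stage the titles give E6.0 and another label 6.5, and it is called E6.0 here. Replicates of cultured cells were passages of a line and not separate derivations, so their p-values measure the spread between passages (and, for FS, between the lines).

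OCT4 is a POU-domain transcription factor that binds DNA together with SOX2, an HMG-box factor, at a joint OCT-SOX element, and with the homeodomain protein NANOG these proteins bind many of the same enhancers, including their own. SALL4 and ZFP281 are zinc finger proteins that act with them and with chromatin complexes such as NuRD. LIN28A is an RNA-binding protein that blocks the maturation of let-7 microRNAs, UTF1 is a chromatin-bound protein, and DPPA2 and DPPA4 form a heterodimer that guards developmental promoters against DNA methylation. In the embryo, Pou5f1 is known to be expressed throughout the epiblast around implantation, whereas Nanog is known to fall in the epiblast at implantation and to return in its posterior part before gastrulation.

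Library totals ran from 5827093 to 15916800 counts, at which 3 counts corresponded to 0.171 to 0.589 CPM (counts scaled to library size, with TMM factors). All 6 epiblast markers chosen as a check (Otx2, Fgf5, Dnmt3b, Pou3f1, Cdh1 and Epcam) were detected in every sample, with summed levels of 1362 to 2715 CPM in the cultured samples and 3958 to 7182 CPM in the epiblasts. Markers of other cell types differed between groups. The summed level of 7 feeder fibroblast genes was 216 to 258 CPM in AF, 29.1 to 52.1 in AFX, 15.2 to 44.7 in FS and 9.32 to 22.7 in the epiblasts. That of 10 visceral endoderm genes was 306 to 906 CPM in E5.0, 44.2 to 82.8 in E5.5, 25.95 to 33.9 in E6.0, 62.4 to 94.5 in AF, 12.95 to 25.7 in AFX and 7.24 to 12.9 in FS. In such bulk samples, fewer cells of a type and less RNA per cell cannot be told apart.

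The 9 genes lie on 8 chromosomes (GRCm38, the build the submitters name as mm10, with GENCODE M21 annotation) and are protein coding. Nanog lies at chr6:122707489-122714633 on the plus strand, Sox2 at chr3:34650405-34652461 (plus) inside the span of the long noncoding gene Sox2ot on the same strand, and Pou5f1 at chr17:35506018-35510772 (plus). Dppa4 (chr16:48283733-48294237) and Dppa2 (chr16:48303908-48319723) are neighbours on the plus strand, 9.67 kb apart, with 0 annotated genes between them. Sall4 lies at chr2:168748332-168767943 (minus), Lin28a at chr4:134003330-134018841 (minus), Utf1 at chr7:139943789-139945112 (plus) and Zfp281 at chr1:136624901-136630053 (plus). Exons of Pou5f1, Sall4 and Lin28a overlap annotated transcripts of the opposite strand, and the strand setting of the counting is not given in the sources used here. Those transcripts drew few counts over the 21 samples: 228 for Gm19553 against 103083 for Pou5f1, 95 for Gm14261 against 80526 for Sall4, and 84 for Gm13061 against 104530 for Lin28a. Sox2ot, which shares 0 exon bases with Sox2, had 459 counts against 11790. The processed pseudogene Nanog-ps1 had 1 count.

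Promoter sequences from RefSeq (GRCm38.p6) were at hand for 6 of the 9 genes. Those of Nanog, Sox2 and Pou5f1 are shown because Nanog and Sox2 passed the test in opposite directions between FS and AF cells while Pou5f1 did not pass. The runs cover chr6:122707239-122707488, chr3:34649745-34649994 and chr17:35505782-35506017, all on the plus strand, upstream of the annotated starts. Capitals mark the joint OCT-SOX element in Nanog, the octamer core of an OCT4 site in Sox2 and a GC box in Pou5f1.
Nanog: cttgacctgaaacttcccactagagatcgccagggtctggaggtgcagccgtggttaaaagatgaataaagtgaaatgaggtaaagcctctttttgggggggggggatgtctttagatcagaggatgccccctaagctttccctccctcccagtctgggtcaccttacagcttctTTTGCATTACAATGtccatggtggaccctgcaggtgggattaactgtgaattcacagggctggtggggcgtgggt
Sox2: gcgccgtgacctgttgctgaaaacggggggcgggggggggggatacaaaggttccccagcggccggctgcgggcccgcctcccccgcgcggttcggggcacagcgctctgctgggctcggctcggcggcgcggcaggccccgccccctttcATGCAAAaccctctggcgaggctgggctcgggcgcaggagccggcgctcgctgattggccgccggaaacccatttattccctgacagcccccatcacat
Pou5f1: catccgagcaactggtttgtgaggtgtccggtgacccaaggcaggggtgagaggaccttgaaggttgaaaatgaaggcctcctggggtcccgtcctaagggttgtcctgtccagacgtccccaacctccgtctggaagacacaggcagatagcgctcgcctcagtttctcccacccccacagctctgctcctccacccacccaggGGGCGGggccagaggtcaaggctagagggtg

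The joint element was searched on both strands as the SOX core CATTGT, any base N and the octamer core ATGCAAA in a row, over 32851 promoter windows of 250 bases before a RefSeq start. It was found in 2 windows (0.00609%), and both belong to Nanog, where it lies 62 to 75 bases before the start on the reverse strand (138 to 151 bases before the alternative start). The octamer core alone was in 4.12% of windows and in those of Nanog and Sox2 (93 to 99 bases before the start). The SOX core alone was in 10.7% of windows, and the GC box GGGCGG in 32.7%, among them those of Sox2, Pou5f1, Utf1 and Zfp281. The Sox2 window was 72.0% G and C with 27 CG dinucleotides and that of Nanog 52.0% with 3, beside medians of 52.4% and 6 over all windows. These matches describe letters in a window and not binding.

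Levels of different genes were compared per kilobase of exon. In FS cells Pou5f1 led at 178 ± 22.1 CPM per kb (SD, n = 6), followed by Lin28a at 116 ± 14.2, Utf1 at 55.6 ± 21.5, Sall4 at 51.3 ± 4.97, Sox2 at 30.4 ± 5.79, Zfp281 at 17.0 ± 2.38 and Nanog at 9.11 ± 2.76. Dppa4 and Dppa2 came last at 1.15 ± 0.893 and 0.898 ± 1.01 CPM per kb. In E5.0 epiblasts (SD, n = 3) Pou5f1 led at 255 ± 8.43 CPM per kb, Utf1 stood at 198 ± 18.8, Dppa4 at 54.5 ± 5.25, Dppa2 at 29.9 ± 5.15 and Nanog last at 2.17 ± 2.22. Thus the per-length order placed Dppa2 and Dppa4 below Nanog in FS and above it at E5.0.

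**Figure D1:**
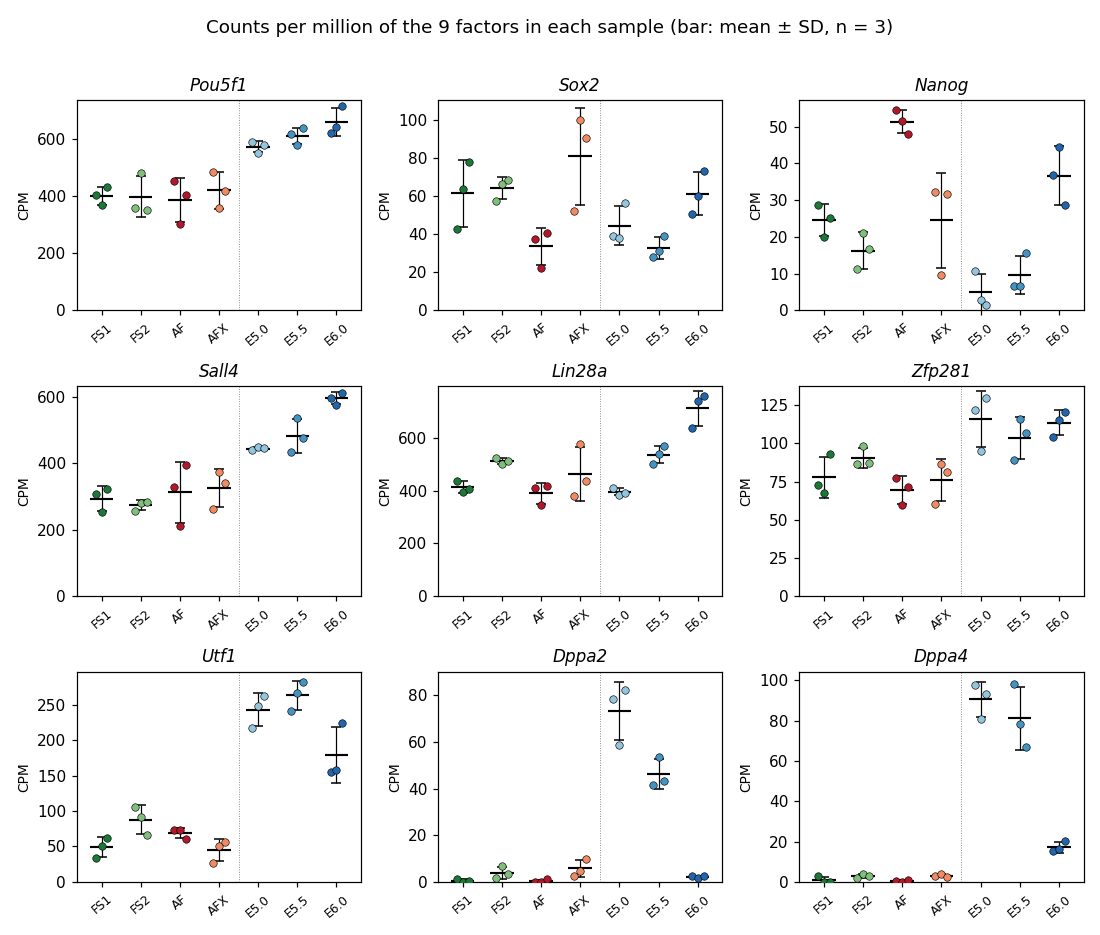
CPM of each of the 9 genes (y axis, from 0, own scale per panel) in the 21 samples, grouped on the x axis into FS1, FS2, AF, AFX and the 3 epiblast stages. Points are samples and bars are mean ± SD (n = 3); Nanog is highest in AF (48.1 to 54.4 CPM), and Dppa2 and Dppa4 are highest in E5.0 and E5.5.

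FS cells held Pou5f1, Sall4, Lin28a, Utf1 and Zfp281 at levels that overlapped those of AF cells, whereas Sox2 was higher and Nanog lower in FS. Pou5f1 measured 404, 368 and 431 CPM in FS1, 360.2, 481 and 353 in FS2, and 455, 304 and 404 in AF. The FS mean of 399.6 ± 49.8 CPM (SD, n = 6) and the AF mean of 388 ± 76.8 (SD, n = 3) lay within each other's spread, and AF passages covered a wider range than FS1.

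Sox2 read 42.4, 63.6 and 77.7 CPM in FS1, 57.4, 66.4 and 68.2 in FS2, and 37.6, 22.3 and 40.5 in AF. Every FS sample was above every AF sample, with FS1 passage 10 closest to AF passage 16. The log2 fold change was 0.89 ± 0.24 (SE; adjusted p 0.0199, edgeR), or 1.86-fold. Nanog read 28.8, 20.0 and 25.0 CPM in FS1, 11.2, 20.99 and 16.6 in FS2, and 54.4, 51.6 and 48.1 in AF. The AF values lay close together and well above the highest FS value, and the log2 fold change was -1.34 ± 0.32 (adjusted p 0.0109), that is 2.54-fold higher in AF.

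These were the 2 of 9 genes past the threshold of adjusted p under 0.05 in FS against AF, 1 in each direction, where 19.5% of the 16052 genes tested passed it (8.86% higher and 10.6% lower in FS). The median log2 fold change was 0.24 over the 9 genes and 0.02 over all genes tested. AF passage 15 was the lowest of the 21 samples in Sox2, and also in Pou5f1, Sall4, Lin28a and Zfp281. Leaving it out ended the Sox2 call (0.67, adjusted p 0.0835). With FS line 1 alone as FS the adjusted p was 0.0801 for Sox2 (0.87) and 0.0667 for Nanog (-1.07), and 0 of 9 passed. The summed levels of feeder fibroblast and visceral endoderm genes stood higher in AF than in FS (sums above). All 4 visceral endoderm genes tested and 5 of 6 feeder genes passed as lower in FS, and 0 as higher. The remaining feeder gene, Thy1, went the other way without passing (1.33 ± 0.49, adjusted p 0.0738). The summed level of 7 extraembryonic ectoderm genes was 14.4 to 25.3 CPM in AF, 3.27 to 5.79 in FS and 3.99 to 7.52 in AFX, and of the 3 tested Bmp4 (-2.17 ± 0.28) and Tfap2c (-4.30 ± 0.54) were lower in FS than in AF. The third, Ascl2, did not pass, with means of 2.50 CPM (FS) against 1.16 (AF; 1.09 ± 0.47, adjusted p 0.124). All 6 naive pluripotency genes tested were lower in FS (median -2.40), with sums over the 10 listed of 46.7 to 70.2 CPM in AF and 6.85 to 14.3 in FS. Of 5 neural genes 1, Nes, was lower in FS (-0.46 ± 0.11, adjusted p 0.00875) and 0 higher. Of 6 epiblast markers 2, Dnmt3b (0.97 ± 0.20) and Epcam (0.58 ± 0.16), were higher and 0 lower. The part of these genes in the differences was not tested.

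The other members did not pass. Sall4 measured 253 to 323 CPM in FS and 211 to 395 in AF, and Zfp281 67.4 to 98.0 against 59.4 to 77.6. Lin28a read 463 ± 56.7 CPM in FS and 389.7 ± 39.0 in AF (0.24 ± 0.14, adjusted p 0.247). Utf1 means were 68.2 ± 26.4 and 68.9 ± 7.26 CPM, and FS samples ran from 33.6 to 106 CPM.

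Dppa2 and Dppa4 were near the limit of detection in AF: Dppa2 had 0, 0 and 11 counts and Dppa4 2, 2 and 9 in the 3 passages. In FS1 Dppa2 had 11, 0 and 7 counts and Dppa4 27, 1 and 2, and in FS2 the counts were 19, 63 and 59 for Dppa2 and 25, 36 and 47 for Dppa4. FS1 passage 10 held most of the Dppa4 counts of its line. The log2 fold changes of FS against AF were 2.58 ± 1.30 (adjusted p 0.196) and 2.13 ± 0.90 (adjusted p 0.118). AF passage 16 held most of the AF counts of both genes. Without that passage Dppa4 gave a larger value of 3.12 (adjusted p 0.109), and Dppa2, then at 0 counts in AF, had an adjusted p of 0.101. Dppa4 passed without FS1 passage 11 (2.35, adjusted p 0.0441) or passage 18 (2.37, adjusted p 0.0451), and with FS line 2 alone both passed (Dppa2 3.34, adjusted p 0.0352; Dppa4 2.66, adjusted p 0.00504).

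Between FS and AFX, 0 of 9 genes passed the threshold in edgeR, 0 had an unadjusted p under 0.05 and 0 passed in DESeq2. Of the 16052 genes, 8.7% passed in edgeR (3.78% higher, 4.92% lower), 22.6% had an unadjusted p under 0.05 and 12.3% passed in DESeq2. AFX values of Pou5f1 were 487, 357 and 419.6 CPM, inside or next to the FS range, with a log2 fold change of -0.08 ± 0.14 (adjusted p 0.779). Sox2 read 51.9, 99.99 and 90.2 CPM and Nanog 32.3, 9.50 and 31.7 in AFX. Both genes overlapped with FS, and AFX passage 15 was highest in Sox2 and lowest in Nanog of the 3. The log2 fold changes were -0.37 ± 0.23 for Sox2 (adjusted p 0.371) and -0.28 ± 0.33 for Nanog (adjusted p 0.675).

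Utf1, at 26.8, 50.6 and 55.8 CPM in AFX, gave 0.61 ± 0.32 (adjusted p 0.292), and 0.96 (adjusted p 0.0280) with FS line 2 alone. Dppa2 had 39, 37 and 120 counts in AFX and Dppa4 45, 30 and 29, with log2 fold changes of -1.39 ± 0.94 and -0.68 ± 0.71. The remaining estimates were -0.21 ± 0.16 for Sall4, -0.01 ± 0.13 for Lin28a and 0.14 ± 0.14 for Zfp281. The median was -0.21 over the 9 genes and 0.00 over all genes tested. These intervals do not show that FS and AFX were alike.

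AFX and AF samples carry the same E14 and passage labels, and their media are named differently. Sox2 was the 1 member of 9 that passed, 2.40-fold higher in AFX (log2 1.27 ± 0.27, adjusted p 0.0120), where 8.73% of the 16052 genes passed (4.3% higher, 4.42% lower). All 3 AFX values (51.9 to 99.99 CPM) were above all 3 AF values (22.3 to 40.5), and without AFX passage 15 the value was 1.08 (adjusted p 0.0541). The AFX and AF samples also did not overlap in Nanog (9.50 to 32.3 against 48.1 to 54.4 CPM), Utf1 (26.8 to 55.8 against 60.6 to 73.6), Dppa2 and Dppa4. Their log2 fold changes were -1.06 ± 0.39 (adjusted p 0.121), -0.64 ± 0.37 (adjusted p 0.350), 3.97 ± 1.39 (adjusted p 0.108) and 2.80 ± 0.97 (adjusted p 0.0971). Without AF passage 16 Dppa4 gave 3.80 (adjusted p 0.0968), and Dppa2, then at 0 counts in AF, had an adjusted p of 0.0797. The share of all genes that were also without overlap was not counted, so the separation of 3 from 3 samples is a description.

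Nanog (adjusted p 0.0367) and Dppa4 (adjusted p 0.0328) passed in the DESeq2 test of AFX against AF. In a fit of these 2 groups alone Dppa2 (adjusted p 0.0457) and Dppa4 (adjusted p 0.0238) did, and with the FS lines as separate groups Dppa2 did (adjusted p 0.0300). Pou5f1 (0.12 ± 0.16), Sall4 (0.06 ± 0.19), Lin28a (0.25 ± 0.15) and Zfp281 (0.12 ± 0.16) were within the spread between passages. Both comparisons with AF use the same AF samples, so that their values in Sox2 and Nanog are not independent of each other. Feeder fibroblast genes, at 216 to 258 CPM in AF, were 29.1 to 52.1 in AFX, where 5 of 6 tested were lower and 1, Thy1, was higher (10.7 against 2.14 CPM; 2.29 ± 0.55, adjusted p 0.0181). Of those tested, 3 of 4 visceral endoderm and 3 of 6 naive pluripotency genes were lower in AFX and 0 higher. Of 5 neural genes 0 passed, with log2 fold changes of AFX over AF of 3.496 for Pax6, 3.34 for Hes5, 3.30 for Zic1, 1.45 for Sox1 and -0.15 for Nes (adjusted p 0.0931 to 0.584). Their summed level, mostly Nes, was 385 to 429 CPM in AFX and 406 to 462 in AF. Bmp4 (-1.73 ± 0.34) and Tfap2c (-2.98 ± 0.64) of the extraembryonic ectoderm list were lower in AFX than in AF, and Ascl2 was at 2.26 and 1.16 CPM (0.97 ± 0.52, adjusted p 0.310). The part of the feeder, visceral endoderm, naive, neural and extraembryonic ectoderm genes in these differences was not tested.

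**Figure D2:**
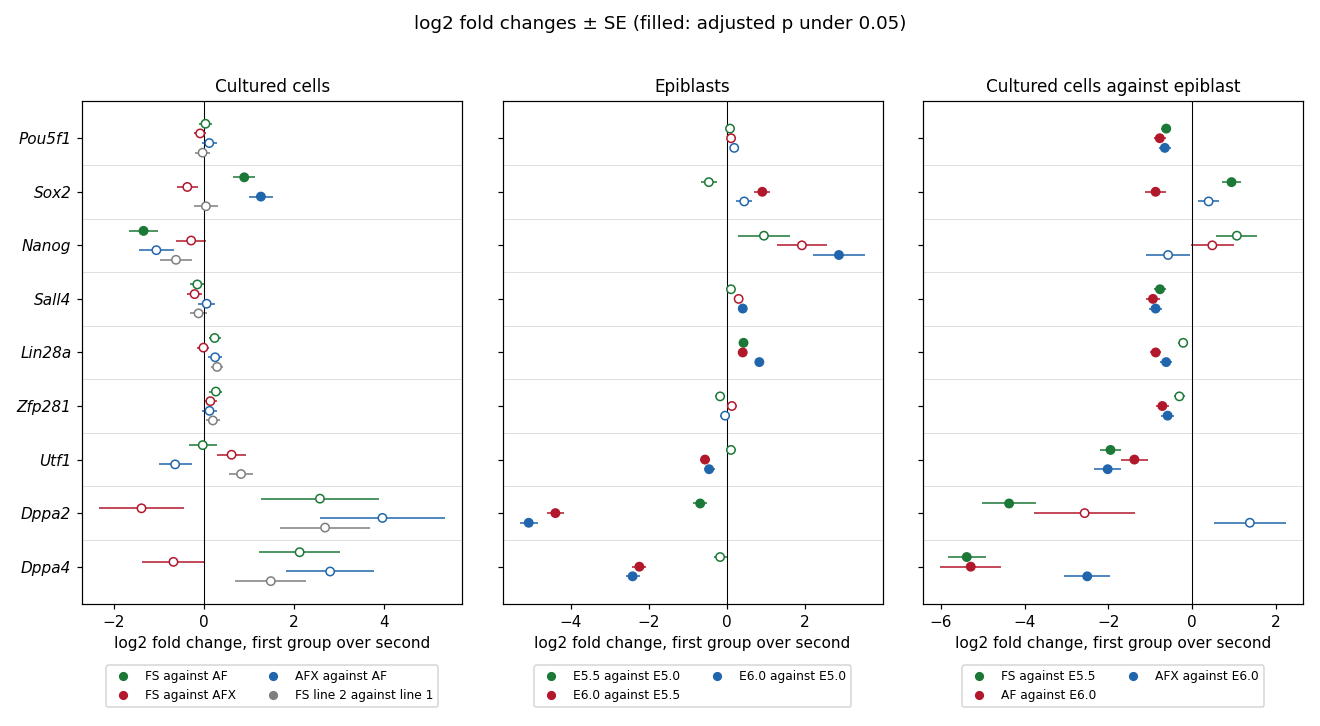
log2 fold changes (x axis, first-named group over second) with SE of the 9 genes (y axis) in 10 comparisons; filled points have an adjusted p under 0.05. In cultured cells Sox2 and Nanog carry the filled points, from -1.34 to 1.27, while Dppa2 and Dppa4 reach -5.07 and -2.41 between E6.0 and E5.0.

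Between the FS lines 0 of 9 genes passed in edgeR, where 3.85% of the 16052 genes passed (2.65% higher, 1.2% lower). An unadjusted p under 0.05 was found for 3 of 9 members and 17.4% of all genes, and 1 member (Utf1) and 6.85% of all genes passed in DESeq2. Lin28a was 438, 396 and 407 CPM in FS1 and 525, 502 and 511 in FS2. The lines did not overlap, and the difference of 0.29 ± 0.13 had an adjusted p of 0.274. Utf1 was 33.6, 51.2 and 61.3 CPM in FS1 and 106, 91.0 and 66.1 in FS2, again without overlap, at 0.82 ± 0.27 (adjusted p 0.129). In DESeq2 the adjusted p of Utf1 was 0.0360 (0.83), and in a fit of the lines alone that of Lin28a was 0.0432 (0.30). With no filter on low counts Nanog (adjusted p 0.0252), Utf1 (2.66e-06) and Dppa2 (1.60e-05) passed.

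Dppa2 was also higher in each FS2 sample, at 1.53, 6.64 and 3.36 CPM against 1.09, 0 and 0.570 (2.69 ± 1.00, adjusted p 0.178). Dppa4 overlapped through FS1 passage 10, without which it passed (4.17, adjusted p 0.00746; 1.49 ± 0.79 and adjusted p 0.362 with it). Nanog was lower in FS2 by -0.62 ± 0.36 (adjusted p 0.414), with the lines overlapping. Pou5f1, Sox2, Sall4 and Zfp281 gave log2 fold changes of -0.03 ± 0.16, 0.04 ± 0.28, -0.12 ± 0.19 and 0.20 ± 0.16. The median was 0.20 over the 9 genes and -0.02 over all genes tested. Here too the share of all genes without overlap was not counted.

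In the epiblast the members went separate ways from E5.0 to E6.0: Lin28a, Sall4 and Nanog rose, Dppa2, Dppa4 and Utf1 fell, and Pou5f1, Sox2 and Zfp281 did not pass the test. Of the 14228 genes tested, 21.8% passed between E6.0 and E5.0 (10.2% higher, 11.6% lower), and 6 of 9 members did, 3 in each direction. The median log2 fold change was 0.19 over the 9 genes and -0.02 over all genes tested. Marker lists moved over this interval too. Of those tested, 7 of 8 visceral endoderm, 3 of 8 naive pluripotency and 1 of 5 feeder genes were lower at E6.0 and 0 higher. In the neural list 1 of 3 and in the epiblast list 1 of 6 were higher and 0 lower, and 0 of 3 extraembryonic ectoderm genes passed. The part of these lists in the members' changes was not tested.

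Pou5f1 was 590.3, 553 and 578 CPM at E5.0, 617, 582 and 638 at E5.5, and 622, 643 and 717 at E6.0. The E6.0 samples lay above the E5.0 samples, by 0.19 ± 0.08 (adjusted p 0.126). Sox2 was 38.9, 38.1 and 56.1 CPM at E5.0, 27.8, 30.9 and 38.9 at E5.5, and 50.3, 60.0 and 73.0 at E6.0. It was lowest at E5.5, from which it rose 1.87-fold to E6.0 without overlap (log2 0.91 ± 0.20, adjusted p 0.0199). This call was lost without E5.5 embryo 1 or 2 or E6.0 embryo 2 or 3 (0.76 to 0.93, adjusted p 0.0720 to 0.109). The difference between E5.5 and E5.0 did not pass (-0.46 ± 0.20, adjusted p 0.190), nor did E6.0 against E5.0 (0.44 ± 0.20, adjusted p 0.130), which passed without E5.0 embryo 4 (0.67, adjusted p 0.0304).

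Nanog had 85, 14 and 11 counts in the E5.0 epiblasts (10.6, 2.75 and 1.32 CPM), 6.55, 6.65 and 15.7 CPM at E5.5, and 36.9, 44.6 and 28.5 CPM at E6.0. Each E6.0 epiblast was above each younger epiblast. E6.0 was 7.30-fold above E5.0 (log2 2.87 ± 0.68, adjusted p 0.0170). Without E5.0 embryo 1, the highest of its stage, the value was 4.24 (adjusted p 0.000164), and without E5.0 embryo 2 it was 2.63 (adjusted p 0.0622). The step from E5.5 to E6.0 was 1.92 ± 0.63 (adjusted p 0.142; 0.00625 with these 2 stages alone), and from E5.0 to E5.5 it was 0.95 ± 0.67 (adjusted p 0.457), which became 2.31 (adjusted p 0.0183) without E5.0 embryo 1. Of 8 visceral endoderm genes tested, 7 were lower at E5.5 than at E5.0 and 7 at E6.0 than at E5.0. Between E6.0 and E5.5 0 of 8 passed (sums above). E5.0 embryo 2 had the highest sum at 906 CPM. It also had the highest sum of the 7 extraembryonic ectoderm genes among the epiblasts, 36.9 CPM beside 13.8 and 7.08 in E5.0 embryos 1 and 4. The part of both lists in these differences was not tested.

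Sall4 was 439, 449.5 and 445 CPM at E5.0, 434, 535 and 477 at E5.5, and 598, 577 and 612 at E6.0. The 3 E5.0 epiblasts were nearly equal, and E6.0 stood 1.33-fold above them (log2 0.41 ± 0.09, adjusted p 0.00493). From E5.5 to E6.0 the value was 0.30 ± 0.09 (adjusted p 0.0713; 0.31 and adjusted p 0.0365 in DESeq2). Zfp281 ranged from 88.8 to 130.0 CPM over the 9 epiblasts, with the stages overlapping.

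Lin28a passed at each step: 410.1, 384 and 392 CPM at E5.0, 501, 539 and 568 at E5.5, and 637, 739 and 757 at E6.0. No 2 stages overlapped. The log2 fold changes were 0.43 ± 0.09 to E5.5 (adjusted p 0.0127), 0.41 ± 0.09 from E5.5 to E6.0 (adjusted p 0.0183) and 0.83 ± 0.09 from E5.0 to E6.0 (adjusted p 2.58e-05). The first step had adjusted p-values of 0.0533 and 0.0514 without E5.5 embryo 2 or 3. With a replicate block of embryo number 0 of 9 members passed there, beside 2.96% of all genes, so this first call was lost as well. The second lost its call without E5.5 embryo 1 or 2 or E6.0 embryo 2 or 3 (0.36 to 0.41, adjusted p 0.0747 to 0.107).

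Utf1 was 217, 248 and 263 CPM at E5.0, 242, 266 and 283 at E5.5, and 155, 158 and 224 at E6.0. E6.0 embryo 3 was within the E5.0 range, and below all E5.5 values. The fall was -0.56 ± 0.14 from E5.5 (adjusted p 0.0361) and -0.46 ± 0.14 from E5.0 (adjusted p 0.0311). The call from E5.5 was lost without any 1 of the E5.5 and E6.0 epiblasts other than E6.0 embryo 3 (adjusted p 0.0653 to 0.195, values -0.61 to -0.46). The call from E5.0 was lost without E5.0 embryo 2 or 4 or E6.0 embryo 1 or 2 (adjusted p 0.0642 to 0.157, values -0.43 to -0.35).

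Dppa2 gave the widest change of the 9 genes: 78.5, 58.9 and 82.4 CPM at E5.0, 41.6, 53.4 and 43.3 at E5.5, and 2.36, 1.82 and 2.45 at E6.0. The E6.0 libraries still held 18, 21 and 23 counts, above the 3-count limit. From E5.5 to E6.0 it fell by 4.39 ± 0.22 on the log2 scale, to 20.96-fold lower (adjusted p 1.09e-07), and from E5.0 by 5.07 ± 0.23, to 33.7-fold lower (adjusted p 1.90e-08). The first step, -0.68 ± 0.18 (adjusted p 0.0346), was without overlap. It lost its call without any 1 of the E5.0 and E5.5 epiblasts other than E5.0 embryo 2 (adjusted p 0.0596 to 0.126, values -0.79 to -0.58). The call was also lost with a replicate block of embryo number.

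Its neighbour Dppa4 was 97.7, 80.8 and 93.2 CPM at E5.0, 97.9, 78.4 and 66.7 at E5.5, and 15.1, 16.1 and 20.3 at E6.0. E5.0 and E5.5 overlapped (-0.17 ± 0.17, adjusted p 0.592), and E6.0 lay below both. It fell by 2.24 ± 0.18 from E5.5 (adjusted p 8.03e-06) and by 2.41 ± 0.18 from E5.0 (adjusted p 1.19e-06), 5.33-fold. The E6.0 calls of Dppa2 and Dppa4 against both younger stages held with each epiblast of the compared stages left out in turn.

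Of the 14228 genes, 6.82% passed between E5.5 and E5.0 (3.07% higher, 3.75% lower), where 2 of 9 members did (Lin28a higher, Dppa2 lower), with medians of 0.08 over the 9 genes and -0.01 over all. Between E6.0 and E5.5 4.43% passed (1.89% higher, 2.54% lower), and 5 of 9 members did (Sox2 and Lin28a higher, Utf1, Dppa2 and Dppa4 lower), with medians of 0.13 and -0.02. The 3 stage comparisons share samples and are not independent of each other.

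Against E5.5 epiblasts, FS cells had lower levels of Pou5f1, Sall4, Utf1, Dppa2 and Dppa4 and a higher level of Sox2. These were 6 of 9 members, where 43.8% of the 16614 genes tested passed (23% higher, 20.8% lower). The median was -0.62 over the 9 genes and 0.08 over all genes tested. Other lists moved in this comparison too. Of those tested, 5 of 6 epiblast, 7 of 9 visceral endoderm, 4 of 9 naive pluripotency and 2 of 5 extraembryonic ectoderm genes were lower in FS and 0 higher, 2 of 5 neural genes were higher and 0 lower, and 1 of 6 feeder genes went each way. Among cultured samples alone, 4 visceral endoderm, 6 naive and 3 extraembryonic ectoderm genes passed the filter. The others entered the test through the epiblasts, so that a lower level in FS was set by the filter for them. The part of these lists in the members' differences was not tested. Cultured samples were 1000 cells and embryonic samples were single epiblasts, so that culture and the amount and handling of input cannot be told apart.

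Pou5f1 was 353 to 481 CPM in the 6 FS samples and 582 to 638 in E5.5, 1.53-fold higher in the epiblast (log2 -0.62 ± 0.12, adjusted p 0.000190). Sall4 was 1.70-fold (-0.77 ± 0.14, adjusted p 9.67e-05) and Utf1 3.86-fold higher there (-1.95 ± 0.26, adjusted p 1.10e-05). Sox2, at 42.4 to 77.7 CPM in FS, was 1.92-fold above E5.5 (0.94 ± 0.23, adjusted p 0.00212), again without overlap. Its level in FS stood beside 61.1 ± 11.4 CPM at E6.0. Dppa4 was 41.7-fold higher in E5.5 (-5.38 ± 0.45, adjusted p 7.01e-08), the largest difference of the members in this comparison, and -6.34 with FS line 1 alone.

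Dppa2 was 20.7-fold higher in E5.5 (-4.37 ± 0.65, adjusted p 5.71e-05), with -4.99 without FS2 passage 13, -6.28 with line 1 alone and -3.61 with line 2 alone. Nanog was higher in FS by 1.07 ± 0.49 (adjusted p 0.0853), and by 1.63 (adjusted p 0.0362) without E5.5 embryo 3, or 1.03 (adjusted p 0.0275) with these 2 groups alone. Zfp281 gave -0.30 ± 0.14 (adjusted p 0.0789), and -0.40 (adjusted p 0.0457) without E5.5 embryo 1. Lin28a did not pass (-0.21 ± 0.12, adjusted p 0.150), though it did with FS line 1 alone (-0.37, adjusted p 0.0284).

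The EpiSC groups were set against E6.0, the oldest epiblast. AF was lower in 7 of 9 members and higher in 0, where 35.2% of genes passed (18.1% higher, 17.1% lower), with medians of -0.87 and 0.08. AFX was lower in 6 of 9, where 32.8% passed (17.1% higher, 15.8% lower), with medians of -0.62 and 0.09. Pou5f1 was 1.71-fold higher in E6.0 than in AF (-0.77 ± 0.14, adjusted p 0.000173) and 1.57-fold than in AFX (-0.65 ± 0.14, adjusted p 0.00105). Sall4 gave -0.93 ± 0.16 and -0.87 ± 0.16, Lin28a -0.87 ± 0.14 and -0.62 ± 0.14, and Utf1 -1.38 ± 0.32 and -2.02 ± 0.32 for AF and AFX, each past the threshold. Zfp281 gave -0.71 ± 0.16 (adjusted p 0.00168) and -0.58 ± 0.16 (adjusted p 0.00799), the latter -0.44 (adjusted p 0.0643) without AFX passage 14.

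Sox2 was 1.83-fold higher in E6.0 than in AF (-0.87 ± 0.25, adjusted p 0.0111), and the call was lost without AF passage 15 (-0.64, adjusted p 0.0766) or E6.0 embryo 3 (-0.72, adjusted p 0.0607). In AFX it gave 0.40 ± 0.25 (adjusted p 0.232). Nanog was the member in which AF samples all exceeded the epiblasts (48.1 to 54.4 against 28.5 to 44.6 CPM), without passing (0.49 ± 0.52, adjusted p 0.497; 0.0391 with these 2 groups alone). Dppa4, at 17.2 ± 2.78 CPM in E6.0, exceeded AF 39.0-fold (-5.29 ± 0.73, adjusted p 3.25e-05; -6.30 without AF passage 16) and 5.67-fold higher than in AFX (-2.50 ± 0.55, adjusted p 0.00238). Dppa2 was low on both sides, at 2.21 ± 0.342 CPM in E6.0, 0.340 ± 0.589 in AF and 5.74 ± 3.80 in AFX, and did not pass (adjusted p 0.112 and 0.234). Against AF it passed (adjusted p 0.0410) without AF passage 16, when the remaining AF libraries were both at 0 counts. The AF and AFX comparisons share the E6.0 samples. Of 6 epiblast markers 5 were lower and 0 higher in AF and likewise in AFX. Of 9 naive pluripotency genes tested 2 were higher and 0 lower in AF, and 0 higher and 4 lower in AFX. Markers of other cell types moved too: against E6.0, AF was higher in 4 of 6 feeder fibroblast genes tested, 3 of 9 visceral endoderm, 2 of 5 extraembryonic ectoderm and 2 of 5 neural genes, and lower in 0. AFX was higher in 3 and lower in 1 of 6 feeder genes, lower in 3 of 9 visceral endoderm genes and higher in 4 of 5 neural genes, with 0 of 5 extraembryonic ectoderm genes past the threshold. As in FS against E5.5, some of these marker genes entered the test only through the epiblasts. The part of these lists in the members' differences was not tested.

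Over the 7 groups the range of means was narrow for Pou5f1 (1.70-fold from AF to E6.0), Zfp281 (1.66-fold) and Lin28a (1.82-fold), and wide for Nanog (10.5-fold from E5.0 to AF), Utf1 (5.93-fold) and Dppa2 and Dppa4. Pou5f1 ordered as E6.0, E5.5, E5.0, AFX, FS1, FS2 and AF, with a gap in samples only between E5.0 and AFX. Nanog ordered as AF, E6.0, FS1, AFX, FS2, E5.5 and E5.0, with neighbours overlapping below E6.0. Sox2 ordered as AFX, FS2, FS1, E6.0, E5.0, AF and E5.5, and Zfp281 as E5.0, E6.0, E5.5, FS2, FS1, AFX and AF, with each pair of neighbours overlapping. Dppa4 ordered as E5.0, E5.5, E6.0, AFX, FS2, FS1 and AF, with gaps on either side of E6.0. Sall4 ordered as E6.0, E5.5, E5.0, AFX, AF, FS1 and FS2, with gaps between E6.0 and E5.5 and between E5.0 and AFX. Lin28a ordered as E6.0, E5.5, FS2, AFX, FS1, E5.0 and AF, and Utf1 as E5.5, E5.0, E6.0, FS2, AF, FS1 and AFX, with 1 gap each, below E6.0. Dppa2 ordered as E5.0, E5.5, AFX, FS2, E6.0, FS1 and AF.

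Counts relative to Pou5f1 in the same library do not depend on how libraries are scaled. Per 1000 Pou5f1 counts, Nanog had 119.5, 169.9 and 118.9 counts in AF, 66.3, 26.6 and 75.5 in AFX, 31.0 to 71.3 in the 6 FS samples, 2.28 to 17.9 at E5.0 and 39.8 to 69.3 at E6.0. AF thus stood above the other groups on this scale too. Sox2 had 73.5 to 100.3 counts in AF, 107, 279.7 and 215 in AFX, 105 to 193 in FS, 65.8 to 97.1 at E5.0, 45.0 to 60.9 at E5.5 and 80.8 to 102 at E6.0. AF and E6.0 therefore overlapped in Sox2 on this scale, though not in CPM. Dppa4 had 146 to 166 at E5.0, 24.3 to 28.3 at E6.0 and 0.321 to 10.5 in the cultured samples. Sall4 lay between 538 and 1046.5 counts over the 21 samples, both extremes in AFX.

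**Figure D3:**
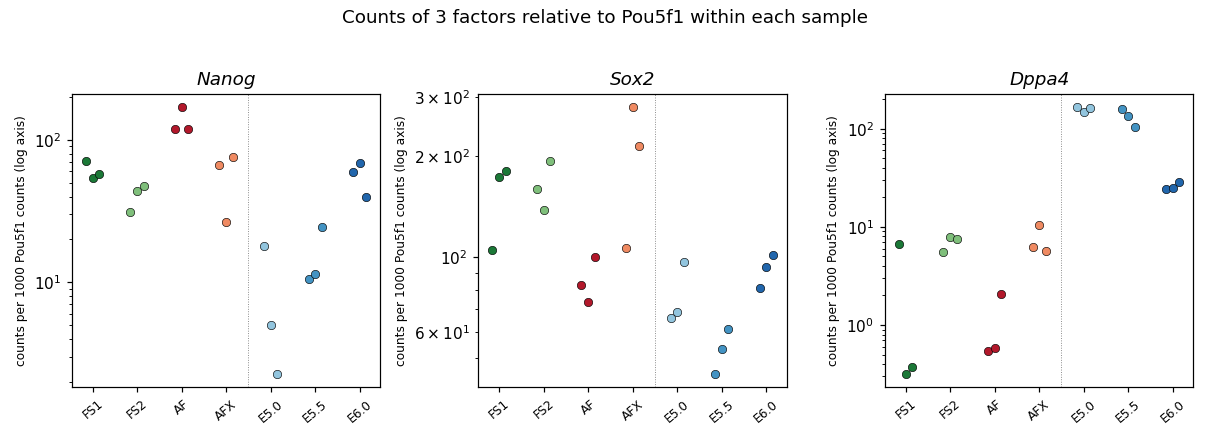
Counts of Nanog, Sox2 and Dppa4 per 1000 Pou5f1 counts (log axis) in each of the 21 samples, by group on the x axis. For Nanog the 3 AF samples are the highest (118.9 to 169.9), and for Dppa4 the E5.0 and E5.5 samples lie at 105 to 166 and the cultured ones at 0.321 to 10.5.

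Genes related to the 9 factors were counted from lists drawn up from general knowledge. The first holds 24 proteins reported as partners of OCT4, mainly chromatin factors. Of 23 tested in cultured cells, 0 were higher and 4 lower in FS than in AF (Klf5 -2.75, Esrrb -2.05, Arid3b -0.81, Gatad2a -0.28; list median -0.00, all genes 0.02), where 8.86% of all genes tested were higher and 10.6% lower. In FS against AFX 0 were higher and 3 lower (Esrrb -1.88, Arid3b -0.50, Sp1 -0.41), beside 3.78% and 4.92% of all genes. Klf5 and Esrrb are themselves transcription factors of naive pluripotency. Against E5.5, 16 of 24 were lower in FS and 0 higher, with a list median of -0.59 beside 0.08 over all genes and 20.8% of all genes lower. The 6 with the largest difference were Mbd3 (-1.04 ± 0.12), Trim24 (-1.03 ± 0.12), Trim28 (-0.96 ± 0.13), Wdr5 (-0.90 ± 0.09), Mta3 (-0.77 ± 0.14) and Nacc1 (-0.77 ± 0.09), of which Mbd3 and Mta3 belong to NuRD. AF was lower than E6.0 in 16 of 24 and higher in 2, where 17.1% of all genes were lower and 18.1% higher. AFX was lower in 15 and higher in 0, where 15.8% of all genes were lower and 17.1% higher. In the epiblast Mta1, another NuRD subunit, rose from 87.5 CPM at E5.0 to 179 at E5.5 and 244 at E6.0 (1.47 ± 0.12 from E5.0 to E6.0, adjusted p 3.25e-06) while Mta3 fell from 92.8 to 54.8 (-0.77 ± 0.12, adjusted p 0.000475). Over E6.0 against E5.0 4 of 23 partners were higher and 3 lower, beside 10.2% and 11.6% of all genes.

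The second list holds 7 genes known for an OCT-SOX element in their enhancers. In FS against AF 1 was higher and 3 lower (list median -2.05), beside 8.86% and 10.6% of all genes. Fgf4, a growth factor of the early epiblast, was 19.2 CPM in FS and 7.74 in AF (1.30 ± 0.40, adjusted p 0.0343), whereas the NODAL pathway genes Lefty1 (1.64 against 144 CPM) and Tdgf1 (1.54 against 86.4) gave -6.57 ± 1.41 and -5.82 ± 0.77 (adjusted p 0.0103 and 0.000548). Zfp42, a naive marker, had at most 2 counts in any FS or AFX library and 3.10 CPM in AF. In FS against AFX 0 of 7 passed, beside 8.7% of all genes. Between the lines, Fgf4 (27.0 CPM in FS2, 11.4 in FS1; 1.22 ± 0.26, adjusted p 0.0146) and Gdf3 (6.03 and 0.290; 4.43 ± 0.44, adjusted p 1.95e-05) were higher in line 2, that is 2 of 7 beside 2.65% of all genes. In the epiblast 4 of 6 tested fell from E5.0 to E6.0 and 0 rose (list median -2.34, all genes -0.02; 11.6% of all genes lower, 10.2% higher): Gdf3 by 3.55 ± 0.30, Zfp42 by 2.73 ± 0.38, Fgf4 by 2.45 ± 0.18 and Tdgf1 by 2.24 ± 0.49. Pou5f1 did not pass over the same interval. Of 8 visceral endoderm genes tested 7 fell over it, their summed level going from 306 to 906 CPM at E5.0 to 25.95 to 33.9 at E6.0, and their part in the fall of this list was not tested.

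Paralogues of the factors numbered 11. In FS against AF 3 were higher and 0 lower: Pou2f2 (1.01 ± 0.33), Sall2 (0.72 ± 0.17) and Lin28b (0.48 ± 0.13), with a list median of 0.38 and 8.86% of all genes higher and 10.6% lower. Sall2, a relative of Sall4, was 126 CPM in AFX and 51.9 in AF (1.27 ± 0.19, adjusted p 0.00137) and lower in FS than in AFX (-0.55 ± 0.16, adjusted p 0.0437). From E5.0 to E6.0 Lin28b rose with its paralogue Lin28a (74.4 to 136 CPM; 0.86 ± 0.13, adjusted p 0.000407), and Pou2f2, a POU factor like OCT4, fell from 35.3 to 6.03 CPM (-2.56 ± 0.24, adjusted p 7.42e-06). In all, 3 of 10 rose and 2 fell there, beside 10.2% and 11.6% of all genes. Against E5.5, 3 of 11 were higher in FS and 6 lower, beside 23% and 20.8% of all genes. Sox1, a neural relative of Sox2, was 16.1 CPM in FS and 1.10 at E5.5 (3.88 ± 0.88, adjusted p 0.00177), and Pou3f1 was 56.2 and 154 CPM (-1.45 ± 0.18, adjusted p 1.35e-06). The sum of 5 neural genes, Sox1 among them, was 284 to 394 CPM in FS and 74.6 to 103 in E5.5, and nearly all of it was Nes (315 and 89.5 CPM). Pax6, Zic1 and Hes5 were at 1.26, 0.690 and 0.389 CPM in FS and did not pass. The part of neural genes in the Sox2 difference between FS and E5.5 was not tested.

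The LIN28 and let-7 axis was represented by 14 tested genes. In FS against AF 2 were higher (Lin28b, and the RNA-binding protein Igf2bp3 at 0.38 ± 0.12) and 2 lower, beside 8.86% and 10.6% of all genes. The lower ones were Hmga2, a chromatin protein and let-7 target (35.5 against 94.3 CPM; -1.42 ± 0.14, adjusted p 7.69e-06), and Igf2bp2 (-0.81 ± 0.16). Hmga2 was also lower in AFX than in AF (49.1 CPM; -0.94 ± 0.16, adjusted p 0.00310). In the epiblast 6 of 14 rose from E5.0 to E6.0 and 1 fell, with a list median of 0.27 beside -0.02 and 10.2% of all genes higher. The 6 largest changes among those past the threshold were Lin28b (0.86), Dicer1 (0.78), Igf2bp2 (-0.66), Mycn (0.58), Igf2bp3 (0.52) and Hmga1 (0.41). In FS against E5.5 6 were higher and 5 lower, beside 23% and 20.8% of all genes, led by Arid3a (1.71 ± 0.26), Mycn (-1.60 ± 0.18) and Igf2bp2 (-1.31 ± 0.13).

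Of 12 genes known to depend on DPPA2 and DPPA4, 6 were in the table and 0 were tested in cultured cells. In FS against E5.5 3 were tested and 2, the meiotic genes Syce1 and Mael, were lower in FS, where 20.8% of all genes were lower. Since 0 passed the filter among cultured samples alone, these 2 entered the test through the epiblasts. Their lower level in FS was thus set by the filter, and nothing is drawn from this count. Syce1 had 0 counts in all 6 FS samples and 6.72 CPM at E5.5, and Mael 0.0176 and 4.84 CPM. In the epiblast 2 were tested and 0 passed between any stages, including those over which Dppa2 and Dppa4 fell. Of all genes, 6.82% passed between E5.5 and E5.0, 4.43% between E6.0 and E5.5 and 21.8% between E6.0 and E5.0.

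**Figure D4:**
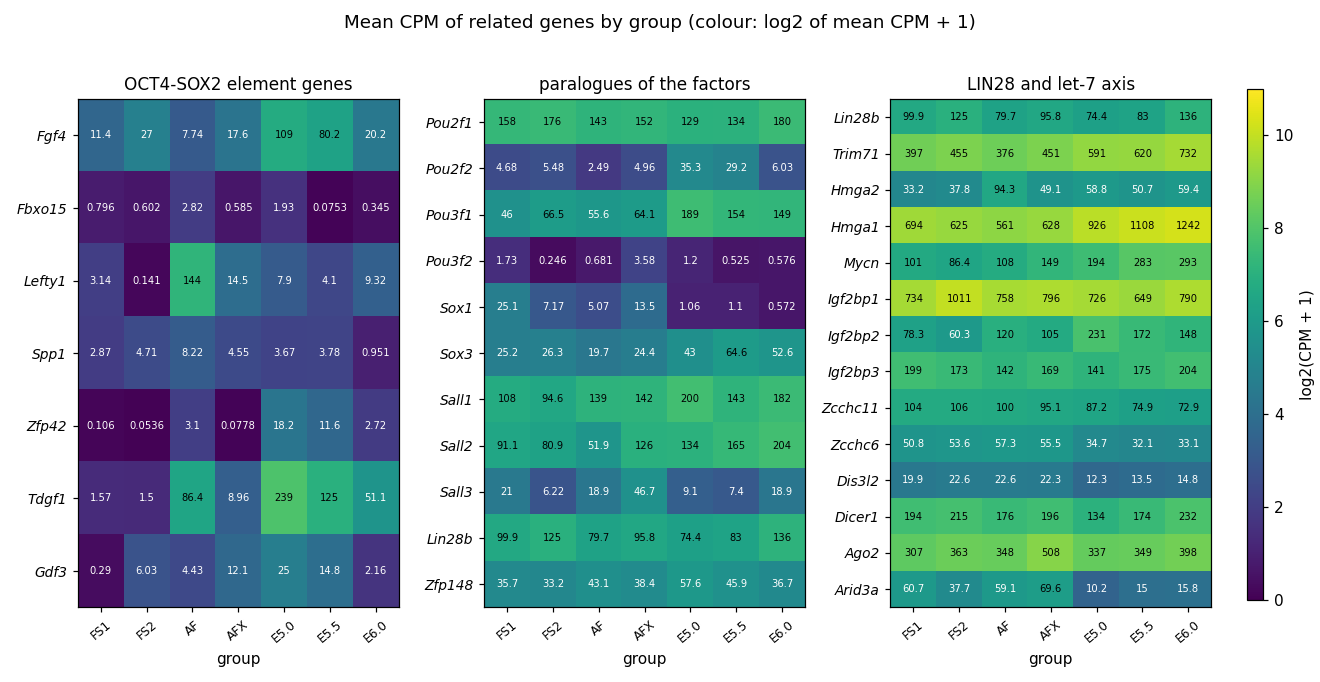
Mean CPM (numbers; colour is log2 of mean CPM + 1) of 3 lists of related genes (rows) in the 7 groups (columns). Lefty1 (144) and Tdgf1 (86.4) stand out in AF among cultured groups, and Lin28b is highest at E6.0 (136).

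The genes whose pattern over the 21 samples was most like that of each member were found by Pearson's correlation of log2 CPM among 9521 genes with at least 10 CPM in some group. The samples share 7 groups and a culture-against-embryo divide, so the values are descriptions. Sall4 was nearest to Eif3b (r = 0.960), Eif2s1 (0.957) and Arid1a (0.955), and Pou5f1 to Snrpf (0.941), Coq7 (0.940) and Nacc1 (0.935), the last also on the list of OCT4 partners. Dppa2 was nearest to Zfp936 (0.954), EU599041 (0.941) and Fgf4 (0.937), and Dppa4 to Tuba3a (0.957), Cbfa2t2 (0.950) and Rfc5 (0.948). Utf1 was nearest to Zdhhc12 (0.951), Myrf (0.938) and Ddx4 (0.931), and Zfp281 to Twistnb (0.926), Mrpl1 (0.925) and Sp2 (0.922). Nanog was nearest to Slc7a6 (0.902), Cdk14 (0.873) and Mvb12b (0.873), Lin28a to Ldb2 (0.857), Carm1 (0.848) and Impdh2 (0.838), and Sox2 to Armcx4 (0.819), Nucks1 (0.809) and Ephb1 (0.804). Among the members themselves, Dppa2 and Dppa4 (0.910) and Pou5f1 and Sall4 (0.858) were most alike, and Nanog and Dppa2 (-0.757) most opposed.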

How the data were processed

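The authors deposited 1 table of raw counts per gene and sample. Per the submitters' processing notes, reads were handled with Trim Galore, TopHat2 2.1.0 and featureCounts 1.5.0 on mm10; strand setting and annotation are not given in the sources used here. Samples were grouped by title. The deposited counts were fitted in R 4.3.3 with edgeR 4.0.16 (filterByExpr, TMM, robust two-sided quasi-likelihood F-tests, Benjamini-Hochberg adjustment over all genes tested, threshold 0.05). Cultured comparisons used the 12 cultured samples, stage comparisons the 9 epiblasts, and comparisons across them all 21. All 9 genes passed the filter in each fit. SE is the absolute log2 fold change over the square root of F. CPM used TMM over all samples, and correlations a prior count of 2. DESeq2 1.42.0 was an alternative. The steps were run on simulated counts in which a small part of the genes was changed 2-fold or 4-fold. In FS against AF 45.1% of the 2-fold and 76.1% of the 4-fold changes were recovered. In E5.5 against E5.0 it was 24.2% and 70.3%, and in FS against E5.5 36.1% and 71.8%. A gene that did not pass may therefore still differ.

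Named were the 9 genes, list genes past the threshold (at most 6 per list and comparison, largest change first) and the 3 nearest patterns. Members and lists were chosen with earlier results of these data known. Promoters came from RefSeq, coordinates from GENCODE M21, and figures from matplotlib 3.10.9. The labels give no batch. Of the table's sample columns, 0 were left out.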

Additional observations from a re-analysis of the deposited data

How the results depend on the processing

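Over 90 member results, 1107 alternative fits gave the same direction and call in 1014, a lost call in 36, a gained call in 31 and a changed sign in 26, of which 0 were results past the threshold. Alternatives were DESeq2 size factors, the DESeq2 test, no filter, 2 groups alone, FS lines alone or apart, a replicate block and each sample left out. Dppa2 had 0 to 11 counts per library in AF and in FS1, and Dppa4 2 to 9 in AF and 1 to 27 in FS1. Estimates that use these counts are limited by them. The cause of the changes was not tested. The median of all genes shifted to 0.12 in AF and AFX against E6.0 with DESeq2 size factors and to 0.11 in FS against E5.5 with no filter.

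Members past the threshold in FS against AF numbered 0 with FS line 1 alone (13.9% of all genes) and 4 with line 2 alone (21.8%), and in FS against AFX 1 with line 2 alone (12.2%). In AFX against AF they numbered 3 in DESeq2 (12.2% of all genes), 3 with 2 groups alone (7.86%) and 2 with separate FS lines (11.6%). Between FS lines, 1099 genes (6.85%) and 1 member passed in DESeq2, and 1045 genes (7.11%) and 1 member with 2 groups alone. With no filter 1298 of 29996 genes (4.33%) and 3 members passed. In the design used it was 618 genes (3.85%) and 0 members. In E5.5 against E5.0, 1590 genes (11.2%) passed in DESeq2, 1659 (6.23%) with no filter and 453 (3.34%) with 2 groups alone, where 1 member passed. The design used gave 971 genes (6.82%). In E6.0 against E5.5 the same settings gave 1075 (7.56%), 1107 (4.15%) and 1445 genes (10.7%), and the design used 631 (4.43%). Signs changed for Utf1 in FS against AF (0.32) and Lin28a in FS against AFX (0.12), both with FS line 2 alone.

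With 1 sample left out at a time, genes past the threshold ranged from 820 (without AFX replicate 16) to 1485 in FS against AFX, 732 (without AFX replicate 15) to 1129 in AFX against AF, 316 (without FS1 replicate 11) to 478 between lines, 371 (without E5.5 replicate 2) to 1260 in E5.5 against E5.0, 238 (without E6.0 replicate 2) to 372 in E6.0 against E5.5 and 1905 (without E6.0 replicate 2) to 3362 in E6.0 against E5.0. Members ranged from 1 to 3 in FS against AF (13.6% to 21.1% of all genes), 0 to 1 in AFX against AF (4.4% to 6.87%), 0 to 1 between lines (1.9% to 2.87%), 0 to 2 in E5.5 against E5.0 (2.48% to 8.48%) and 2 to 4 in E6.0 against E5.5 (1.59% to 2.5%). Log2 fold changes that crossed 0 were, in FS against AF, Pou5f1 (-0.11 to 0.16), Sall4 (-0.36 to 0.051) and Utf1 (-0.20 to 0.11). In FS against AFX they were Pou5f1 (-0.19 to 0.040) and Lin28a (-0.13 to 0.18), and in AFX against AF Pou5f1 (-0.032 to 0.24) and Sall4 (-0.16 to 0.25). Between lines they were Pou5f1 (-0.19 to 0.046) and Sox2 (-0.17 to 0.25), and in E6.0 against E5.0 Zfp281 (-0.15 to 0.060).

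Deviations from group means correlated at r of -0.12 to 0.20 in same-numbered samples and at -0.26 to 0.30 in others. With 3 samples per group these values cannot exclude a pairing by number, and the design used no pairing. With a replicate block 907 genes (6.07%) and 3 members passed in AFX against AF, and 421 genes (2.96%) and 0 members in E5.5 against E5.0. The log2 fold change of Zfp281 in E6.0 against E5.0 was then 0.0064.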
